A study of Mus musculus with 168 samples.

Results

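Mir184 is 1 of 1626 transcripts in a table of short RNA counts from the hippocampus of an allelic series of Huntington's disease (HD) model mice. It was found as the row whose transcript identifier, ENSMUST00000083662, belongs to the gene Mir184 (ENSMUSG00000065596) in GENCODE M21, and no other row carried that gene. It was selected on its level in Q175 mice against controls at 10m. This contrast, the 10m slope on CAG length and the 10m sex difference of the Q175 effect are therefore given below as descriptions with no test. Other contrasts with 10m libraries are tested but share the controls of the selecting contrast, and the 10m sex contrast also holds its Q175 libraries. The hippocampus libraries form 21 groups of 8, made of 7 genotypes and 3 ages (2, 6 and 10 months, written 2m, 6m and 10m).

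All mice were of the C57BL/6 strain. Wild-type (WT) mice had an unaltered Huntingtin gene, and mice of the other 6 genotypes were heterozygous knock-ins (Het) named Q20, Q80, Q92, Q111, Q140 and Q175 after the CAG length of a human HTT exon 1 placed in the mouse gene. The allele sits at the gene's own locus, so it is present in every cell. WT mice were littermates of the Q20 line, so each longer allele is compared with mice of another line, and line and CAG length cannot be told apart. Q175 arose from the Q140 line by spontaneous expansion. Q20 and WT were the controls. Groups had 4 females and 4 males, except Q80 at 2m (3 and 5) and Q20 at 10m (5 and 3).

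MicroRNAs are cut from a hairpin in a longer primary transcript, and 1 or both arms of the hairpin then guide silencing of messenger RNAs that match the seed near the 5′ end. In the mouse brain Mir184 has been described as an imprinted gene, expressed from the paternal allele. Depolarisation raises it in cultured mouse cortical neurons, which is why it is counted among activity-induced microRNAs. In mouse neural stem cells it targets Numbl. Outside the brain it is known as an abundant microRNA of the lens and the corneal epithelium.

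The mature arms are shown because the seed sets which messages a microRNA can silence. Sequences are from RefSeq (GRCm38.p6), 5′ to 3′, with the seed (bases 2 to 8) in capitals.
miR-184-3p: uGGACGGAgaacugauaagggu
miR-184-5p: cCUUAUCAcuuuuccagccagc
In the hairpin, which is the counted transcript, capitals mark the 2 arms, the 5p arm at bases 6 to 27 and the 3p arm at bases 45 to 66.
Mir184 hairpin: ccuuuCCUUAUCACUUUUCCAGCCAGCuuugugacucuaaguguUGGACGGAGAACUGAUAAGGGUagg
The seed of miR-184-3p was shared by 0 of the other microRNAs in a RefSeq table of 1738 mature sequences, and so was the seed of miR-184-5p. No identical mature sequence is listed elsewhere in that table, and the deposited values of Mir184 were whole numbers in every library (within 0.001), unlike many other values in the table. Counts are per hairpin, so the arms cannot be told apart.

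The hairpin lies on chromosome 9 from 89802260 to 89802328 (GRCm38, minus strand, 69 bases) and overlaps 0 annotated genes. The long noncoding RNA 1700017I07Rik starts 0.54 kb away on the opposite strand. The nearest protein-coding genes are Ankrd34c, an ankyrin repeat gene 63.78 kb away on the side of lower coordinates, and Rasgrf1, a Ras exchange factor gene that is itself paternally expressed in mouse brain, 107.58 kb away on the other side. No other annotated microRNA lies within 200 kb, and the nearest is Mir6386. Mir184 is therefore not a member of a microRNA cluster whose other members could be read beside it.

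Mir184 was a scarce hippocampal microRNA. Libraries held 2117539 to 9099227 estimated counts (median 3374648), of which Mir184 took 13 to 135 (median 61). As CPM, counts scaled to a common library total with TMM factors, it ran from 4.70 to 40.4 CPM with a median of 17.6. Per kilobase of annotated transcript its mean level was 269 CPM, against a median of 946 CPM over 407 annotated microRNAs that passed the filter on low counts, and 260 of them stood higher. Mir184 passed this filter, as did 470 transcripts in all.

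Few counts make for coarse values. Counting error alone gave an expected coefficient of variation of 9.87 to 14.0% in the 21 groups (median 12.8%), and the observed one ran from 7.41 to 37.4% (median 17.9%). In 2 groups the 8 libraries spread less than counting error predicts. The spread left to differences between mice was near that of other microRNAs, with a biological coefficient of variation of 0.17 in edgeR against a median of 0.14 over 470 transcripts, 200 of which varied more. In bulk tissue, fewer cells that express a microRNA and less of it per cell cannot be told apart.

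**Figure D1:**
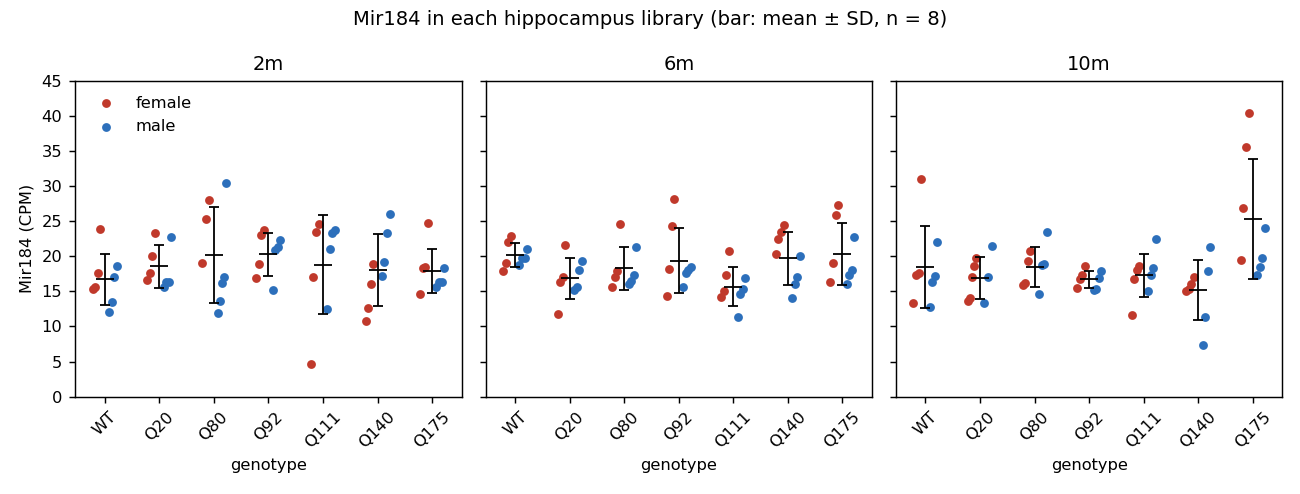
Mir184 (CPM) in each library by genotype, in 1 panel per age; points are libraries, coloured by sex, and black bars are the group mean ± SD (n = 8). The 10m Q175 group has the highest mean, 25.3 CPM, and its 3 highest libraries, at 26.9, 35.6 and 40.4 CPM, are all from females.

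The levels formed 1 narrow band with 1 group above it. Group means of 20 of the 21 groups lay between 15.2 and 20.3 CPM, and 10m Q175 stood at 25.3 ± 8.53 CPM (SD, n = 8). In the order of the means, 10m Q140 was lowest (15.2 ± 4.27), followed by 6m Q111 (15.7 ± 2.79) and 10m Q92 (16.7 ± 1.24), and the groups next to the top were 2m Q92 (20.3 ± 3.06) and 6m Q175 (20.3 ± 4.40). All 20 neighbouring pairs in this order, the top pair included, differed by less than the larger SD of the pair. Such small gaps are nearly bound to arise when 21 means are sorted, and the SD measures the spread between libraries, not the error of a mean. The order of the groups was not tested and is a description, not a ranking.

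At 10m, the age of the selecting contrast, Q175 libraries ran from 17.3 to 40.4 CPM (median 22.0). WT libraries ran from 12.8 to 31.1 (median 17.3) and Q20 libraries from 13.4 to 21.5 (median 17.1). Among the other alleles, Q80 ran from 14.7 to 23.5 (median 18.8), Q92 from 15.2 to 18.6 (median 16.8), Q111 from 11.6 to 22.5 (median 17.7) and Q140 from 7.31 to 21.4 (median 15.7). Every group overlapped with Q175. Only 2 of the 8 Q175 libraries stood above all 48 other 10m libraries, while 22 of those 48 exceeded the lowest Q175 library and 4 exceeded its median. In the fit with sex and batch, Q175 was 1.45-fold higher than Q20 and WT (log2 0.54, SE 0.15), in a contrast in which 11.9% of the 470 transcripts were called (edgeR, adjusted p under 0.05). This value chose Mir184 and is given without a test.

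At 2m, an age that the selection did not use, Q175 libraries ran from 14.7 to 24.7 CPM (median 17.3), WT libraries from 12.0 to 23.9 (median 16.3) and Q20 libraries from 15.6 to 23.4 (median 17.1). The 3 groups covered nearly the same range. Q175 differed from the controls by 0.03 on the log2 scale (SE 0.10, edgeR adjusted p = 0.987, 0% of transcripts called), with an approximate 95% interval from -0.17 to 0.23. A two-sided exact permutation test of the 8 Q175 against the 16 control libraries gave a difference of 0.02 in mean log2 CPM (p = 0.825).

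At 6m, Q175 libraries ran from 16.0 to 27.3 CPM (median 18.5) and WT libraries from 17.9 to 22.9 (median 19.8). Q20 libraries ran from 11.8 to 21.6 (median 16.7), but they belong to another block of library numbers (B) than WT and Q175 (A), and with this block in the fit Q175 is in effect compared with WT alone. The 8 WT libraries lay within the range of Q175. The log2 difference was 0.00 (SE 0.11, edgeR adjusted p = 1, 3.40% called), with an approximate 95% interval from -0.22 to 0.22. The exact permutation test of Q175 against WT within the block gave a difference of -0.01 in mean log2 CPM (two-sided p = 0.923, 8 against 8). The Q175 difference at 6m minus that at 2m was -0.05 (SE 0.15, edgeR adjusted p = 1, 0.426% called). The Q175 value at 10m was not tested against these ages, since it selected Mir184.

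**Figure D2:**
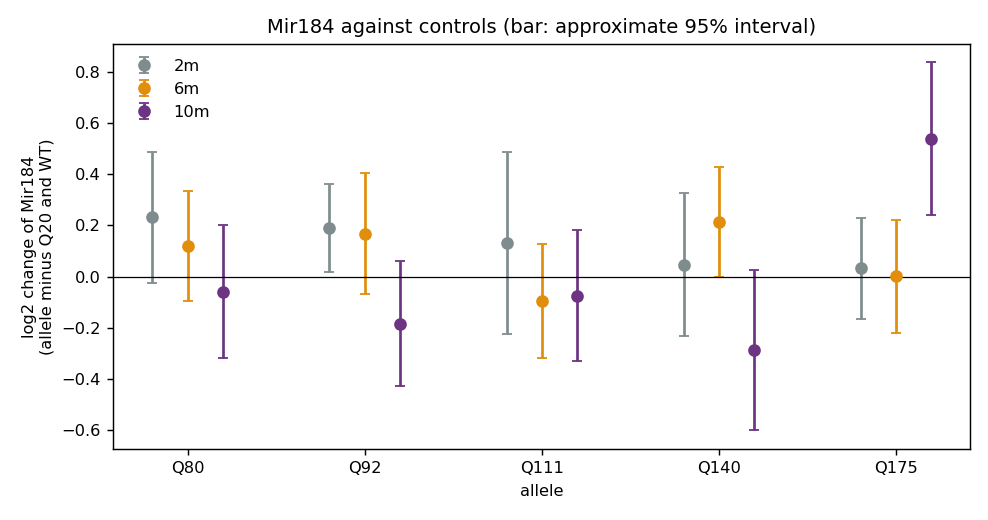
Log2 change of Mir184 in each allele against Q20 and WT of the same age (at 6m in effect WT alone for Q175 and Q20 alone for the others), by allele and age (colour), with approximate 95% intervals from edgeR with sex and batch as covariates. Q175 at 10m stands at 0.54, Q140 at 10m at -0.29, and Q175 at 2m and 6m at 0.03 and 0.00.

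None of the shorter alleles was called at any age. The longest of them, Q140, differed by 0.05 at 2m (SE 0.14, adjusted p = 0.976), 0.21 at 6m (SE 0.11, adjusted p = 0.958) and -0.29 at 10m (SE 0.16, adjusted p = 0.451), all by edgeR. At 10m the Q140 libraries M3 and M4 were low, at 7.31 and 11.3 CPM, and the other 6 ran from 15.1 to 21.4, inside the range of WT. Q111 gave 0.13, -0.10 and -0.08 at 2m, 6m and 10m, Q92 gave 0.19, 0.17 and -0.18, and Q80 gave 0.23, 0.12 and -0.06, with adjusted p from 0.786 to 1. The smallest unadjusted p of these 12 contrasts was 0.0411, for Q92 at 2m (adjusted p = 0.882). In all of them 0% of transcripts were called, except Q111 at 6m with 0.213%. The alleles of an age share their controls, so these values are not independent. At 6m, Q20 and the shorter alleles all lie in block B, so with the block in the fit they are in effect compared with Q20 alone. Without the block term Q140 at 6m stood at 0.07 (SE 0.11) and Q111 at -0.24 (SE 0.11), and neither was called.

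Along the whole series, the slope of Mir184 on CAG length was 0.04 per 100 repeats at 2m (log2, SE 0.09, edgeR adjusted p = 0.988, 0.213% called) and 0.05 at 6m (SE 0.06, adjusted p = 0.876, 1.28% called). At 10m it was 0.18 (SE 0.08) where 11.1% were called, given without a test since it holds the selecting libraries. The 10m slope rested on Q175. Without that allele it was -0.17 (SE 0.09), with Q140 the lowest group. The level at 10m thus did not climb with CAG length from Q20 to Q140. Q20 and WT did not differ at 2m (log2 0.09, SE 0.12, edgeR adjusted p = 0.965) or 10m (-0.04, SE 0.20, adjusted p = 0.996) beyond the spread between libraries, and 0% of transcripts were called in either contrast.

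The 8 Q175 libraries at 10m were not alike. Q175 F4 stood at 40.4 CPM (118 counts, 95% exact Poisson interval 33.4 to 48.3), F2 at 35.6 (116 counts, 29.4 to 42.7) and F1 at 26.9 (85 counts, 21.5 to 33.2). The other 5 were M1 at 24.1, M4 at 19.8, F3 at 19.5, M3 at 18.5 and M2 at 17.3 CPM. These intervals cover counting error only. F4 and F2 stood above all 160 libraries of the other 20 groups. The highest control was WT F3 at 31.1 CPM (106 counts, 25.4 to 37.6).

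Library names at 10m carry the codes L6, L7 and L8, and neither the labels nor the methods say what these mark. The 3 highest Q175 libraries, F1, F2 and F4, are the 3 Q175 libraries with the code L6. Within L6 they ran from 26.9 to 40.4 CPM, and all 8 control libraries of that code lay below them, from 12.8 to 19.7, a mean log2 difference of 1.11. Within L7, the 3 Q175 libraries ran from 18.5 to 24.1 and the 6 controls from 13.3 to 31.1, a difference of 0.07. Within L8, the 2 Q175 libraries stood at 17.3 and 19.5 and the 2 controls at 16.4 and 17.4, a difference of 0.13. Leaving out the 3 L6 libraries, an alternative chosen after seeing the data, brought the Q175 value at 10m from 0.54 to 0.12 (SE 0.17) and the slope from 0.18 to -0.06 (SE 0.08). These 3 were the highest of the group, so leaving them out was bound to lower both values. As a description, the 10m difference of Mir184 rested mainly on these 3 of the 8 Q175 libraries.

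**Figure D3:**
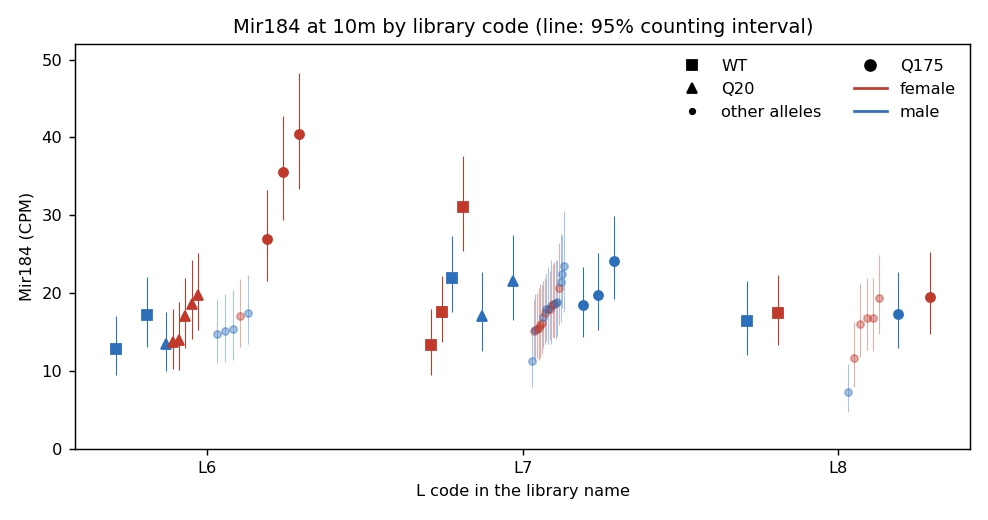
Mir184 (CPM) in the 56 libraries of 10m, by the L code in the library name, with the genotype as the symbol, sex as the colour and the 95% counting interval as a line. Under L6 the 3 Q175 females, from 26.9 to 40.4 CPM, stand above the controls, which end at 19.7; under L7 and L8 the Q175 libraries lie from 17.3 to 24.1 among the controls.

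The 13 L6 libraries of other genotypes averaged 15.9 ± 2.14 CPM (SD), and the 27 such libraries of L7 18.4 ± 3.78. The part of the library code in the high Q175 values was not tested. Sex enters here as well, because all 3 L6 libraries of Q175 are from females and all 3 L7 libraries from males. With sex and code held the same, the 3 Q175 females in L6 (26.9 to 40.4 CPM) lay above the 5 Q20 females in L6 (13.7 to 19.7). The 3 Q175 males in L7 (18.5 to 24.1) overlapped with the 3 control males there (17.1 to 22.0). The fourth Q175 female, F3 in L8, stood at 19.5 CPM beside the WT female of that code at 17.4. Over all codes, Q175 females averaged 30.6 ± 9.25 CPM against 18.0 ± 5.39 in 9 control females, and Q175 males 19.9 ± 2.96 against 17.2 ± 3.55 in 7 control males. The Q175 effect in males minus that in females was -0.77 on the log2 scale (SE 0.30), a description since it uses the selecting libraries. Within Q175 at 10m, L6 held females alone and L7 males alone, and only L8 held both, with 1 library each (19.5 and 17.3 CPM), so sex and the codes L6 and L7 cannot be told apart.

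At the younger ages this sex difference of the Q175 effect did not pass the test. It was -0.28 at 2m (SE 0.21, edgeR adjusted p = 0.624) and -0.19 at 6m (SE 0.20, adjusted p = 1), with 0% called at both ages. Without the batch term the 2m value was -0.001 (SE 0.23). In 6m Q175 the females averaged 22.2 ± 5.28 CPM and the males 18.5 ± 2.92 (SD, n = 4 each). The 2 highest libraries of that group, F4 at 27.3 and F3 at 25.9, were from females, and the other 2 females stood at 16.4 and 19.0, in the midst of the males.

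Over all genotypes, males did not differ from females by a called amount. The male minus female log2 difference was -0.04 at 2m (SE 0.10, edgeR adjusted p = 0.9, 0.426% called), -0.17 at 6m (SE 0.06, adjusted p = 0.426, 0% called) and -0.17 at 10m (SE 0.09, adjusted p = 0.373, 0% called). The unadjusted p was 0.00932 at 6m. The 10m test holds the Q175 libraries used in the selection, so it is not free of the selecting values. In Q140 the sexes stood apart in opposite ways at 2m and 6m, with females at 14.6 ± 3.63 and males at 21.5 ± 4.04 CPM at 2m, and females at 22.7 ± 1.78 and males at 16.8 ± 2.50 at 6m (SD, n = 4 each). This difference was not tested and was noticed after the values were seen.

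Mir184 was not called with age, where most transcripts were. Averaged over the 6 genotypes other than Q175, it differed by -0.04 from 2m to 6m (log2, SE 0.07, edgeR adjusted p = 0.618) and by -0.09 from 6m to 10m (SE 0.07, adjusted p = 0.226). In the same contrasts 59.8% and 63.2% of transcripts were called. Apart from 6m Q92 F2, whose code L3 also occurs at 2m, libraries of different ages carry different codes or number blocks, so age and batch cannot be told apart.

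The totals of the 3 high libraries ran from 2795701 to 3219325 estimated counts, those of the other 5 Q175 libraries of 10m from 2855141 to 3764556, and those of the 16 controls from 2706633 to 4174657. Markers of other tissue were examined next, since the summed level of 7 choroid plexus microRNAs varied widely between libraries. It was 5310 to 6070 CPM in the 3 high libraries, 5800 to 28500 in the other 5 and 6180 to 32000 in the 16 controls. The 3 libraries with high Mir184 thus lay below every control in choroid plexus signal. The median of the controls was 7120 CPM, and the 3 libraries overlapped with the other 5 of Q175.

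The summed level of 10 epithelial microRNAs was 255 to 427 CPM in the 3 high libraries, 287 to 677 in the other 5 and 341 to 1000 in the controls. This sum overlapped with the controls. Of the 10, all tested, 1 was called higher in Q175 at 10m and 0 lower, a count near the 11.9% of all transcripts called. The 1 called was Mir203, a microRNA of stratified epithelium (log2 0.44, SE 0.09, edgeR adjusted p = 0.00241). It stood at 74.9 to 95.8 CPM in the 3 high libraries, 85.3 to 105 in the other 5 and 54.4 to 101 in the controls. The part of Mir203 or its source in the level of Mir184 was not tested. The 6 mesenchyme and vessel microRNAs gave 17700 to 18700, 16500 to 27400 and 17000 to 31400 CPM, the 4 blood cell microRNAs with values (of 6 listed) 3140 to 3250, 2660 to 3180 and 2430 to 3710, and the 3 hypothalamus and pituitary microRNAs 366 to 387, 386 to 422 and 285 to 512, in the same order of libraries. The 3 oligodendrocyte microRNAs gave 4110 to 5110, 4290 to 5420 and 3050 to 5360 CPM. These lists overlapped with the controls, and no marker found in the table was at 0 in all libraries. In Q175 at 10m, 0 of their members and 0 of the choroid plexus microRNAs were called, against 11.9% of all transcripts. With so few members, 0 calls do not show that these tissues were unchanged.

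The summed level of 7 neuron microRNAs was low in the 3 libraries picked out for high Mir184. It was 27400 to 29400 CPM there, below the 30400 to 34800 of the other 5 Q175 libraries. All 16 controls also lay higher, from 32100 to 37900. Over all libraries, with group, sex and batch removed, the Pearson r of the sum with Mir184 was -0.15. Over all the marker lists r ran from -0.195 (epithelium) to 0.108 (oligodendrocyte). With group removed, these values do not bear on the difference between Q175 and controls. Of the 7 neuron microRNAs, all tested, 3 (Mir124a-1, Mir128-1 and Mir128-2) were called lower and 0 higher in Q175 at 10m (edgeR), against 11.9% of all transcripts called. Mir128-1 and Mir128-2 are both forms of Mir128, so these calls are not independent, and Mir124a-2 and Mir124a-3 were not called. The part of the lower neuron signal in the level of Mir184 was not tested. The neuron list as a whole is abundant in every library, with a median of 35400 CPM, as is known of hippocampal tissue.

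Mir184 was then set beside 13 other microRNAs whose level or effect is known to change with neuronal activity, a list chosen with earlier results of these data known. All 13 were tested. In Q175 against controls, 0 rose and 0 fell at 2m, 0 rose and 2 fell at 6m, and 0 rose and 3 fell at 10m (edgeR, adjusted p under 0.05), in contrasts that called 0%, 3.40% and 11.9% of all transcripts. Their median log2 change was 0.04 at 10m, against 0.01 over all 470 transcripts, and 0.03 against 0.02 at 6m. On CAG length, 2 fell at 10m, where 11.1% of all transcripts were called, and 0 passed at 2m or 6m. The rise of Mir184 at 10m is no contrast with them, since it was selected for it, and at 6m Mir184 stood at 0.00.

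The members that fell were led by Mir132 and Mir212, a neighbouring pair that the factor CREB induces in active neurons and that shapes dendrites and synapses. Mir132 ran from 2330 to 2720 CPM in Q175 at 10m (median 2460) and from 2740 to 3170 in the controls (median 2960), and the 2 ranges did not overlap. Its log2 change was -0.25 (SE 0.04, edgeR adjusted p = 3.15e-05), and at 6m it was -0.27 (SE 0.06, adjusted p = 0.0122). Mir212 ran from 796 to 957 CPM in Q175 at 10m against 945 to 1170 in the controls, with 7 of 8 libraries below every control. It changed by -0.30 at 10m (SE 0.04, edgeR adjusted p = 3.15e-05) and -0.21 at 6m (SE 0.05, adjusted p = 0.0225).

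The 3 L6 libraries of Q175 were singled out for their high Mir184, so their separation by Mir184 is no contrast with Mir132 and Mir212. For this pair the 3 libraries overlapped with the other 5. In the 3 L6 libraries Mir132 ran from 2330 to 2680 CPM and Mir212 from 796 to 957, and in the other 5 from 2340 to 2720 and from 818 to 928. Low Mir132 was thus seen under all 3 codes and in both sexes, and both members of the pair had already fallen at 6m, when Mir184 was not called.

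Mir138-2, which yields a synaptic microRNA that limits spine size, changed by -0.12 at 10m (SE 0.04, edgeR adjusted p = 0.0368), and Mir138-1, whose mature form is the same, by -0.14 (SE 0.05, adjusted p = 0.0537). Reads of these 2 genes can be split between them, so their separate values are uncertain. Mir134, which restrains dendritic spines, stood at 0.05 at 10m (adjusted p = 0.602). It shares a large imprinted cluster on chromosome 12 with Mir485, Mir379, Mir410, Mir381, Mir329 and Mir495, which stood at 0.02, 0.04, 0.15, -0.04, 0.06 and 0.04, with adjusted p from 0.142 to 0.791. Mir188, linked to synaptic plasticity, stood at 0.06 (adjusted p = 0.743) and Mir146, better known from inflammation, at 0.04 (adjusted p = 0.814).

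**Figure D4:**
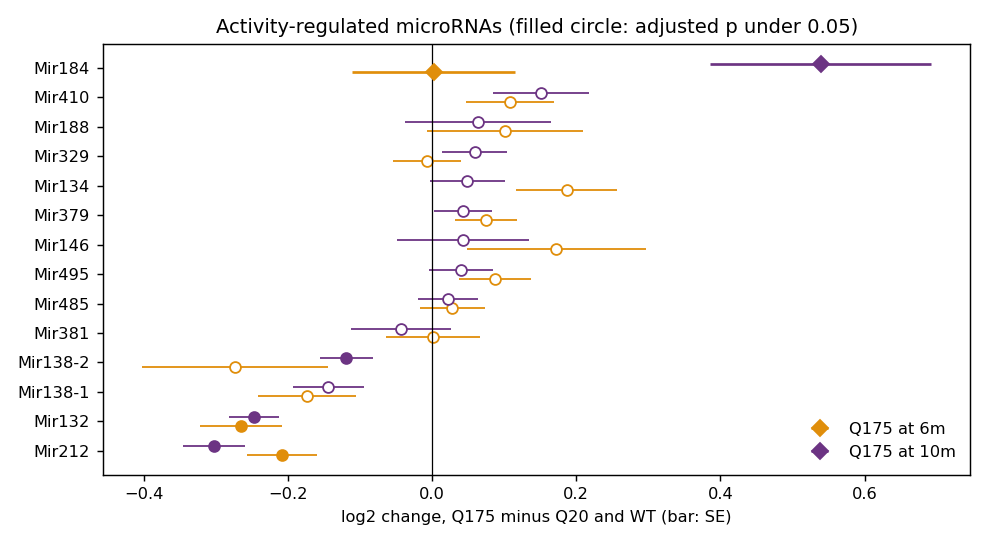
Log2 change in Q175 against Q20 and WT of 13 activity-regulated microRNAs (circles) and Mir184 (diamonds) at 6m and 10m, ± SE; filled circles have an adjusted p under 0.05, and the 10m diamond, which selected Mir184, carries no test. Mir184 lies at 0.00 at 6m and 0.54 at 10m, while Mir132 and Mir212 lie below 0 at both ages.

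No microRNA followed Mir184 closely from library to library. With group, sex and batch removed from log2 CPM, the highest Pearson correlations over all libraries were those of Mir192 (r = 0.36, Spearman rho 0.25), Mir30a (0.35, 0.25), Mir25 (0.34, 0.26), Mir582 (0.33, 0.20) and Mir5129 (0.32, 0.08). The median over the 469 other transcripts was 0.02. Without the 2 libraries farthest from the median of Mir184, Q111 F1 and Q140 M1 of 2m, these 5 fell to 0.23, 0.24, 0.23, 0.22 and 0.09. The lowest correlations were those of Mir135b (-0.34, then -0.29), Mir3547 (-0.30, then -0.22) and Mir342 (-0.30, then -0.27). These points share the count noise and scaling of their libraries, and such weak values are a description only.

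Over the 21 group means, Mir10b (r = 0.67, rho 0.41), Mir669c (0.63, 0.48) and Mir615 (0.62, 0.21) were most like Mir184. Mir10b and Mir615 come from the Hox clusters of developmental genes. Without the 2 groups farthest from the median, 10m Q140 and 10m Q175, the 3 values were 0.22, 0.39 and 0.22. The likeness over groups thus rested mainly on these 2 groups, 1 of which was used to select Mir184.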

How the data were processed

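RNA was extracted with the miRNeasy kit and sequenced on a HiSeq2000 as strand-specific single-end reads, which the study aligned to mm10 with STAR and counted with HTSeq, and CASAVA 1.8.2 appears in the submitters' processing notes. Estimated counts were deposited for 21 groups of 8 libraries (2117539 to 9099227 per library, which limits the precision of scarce microRNAs) by the authors, beside RPKM values, and CPM were computed here from the counts. Many deposited counts are fractional and were rounded to whole numbers before the count models. For Mir184, the only transcript compared, the RPKM deposited by the authors equalled the value computed from the counts in the 16 libraries of block A. It differed by a factor of 1.46 to 1.55 in the other 152. The RPKM therefore served only in an alternative, as log2(RPKM + 1), which understates changes of low values.

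Transcripts were matched to GENCODE M21 (1228 of 1626). Tests used edgeR 4.0.16 (R 4.3.3, quasi-likelihood F tests, TMM, filterByExpr with a minimum count of 10, 470 transcripts) with Benjamini-Hochberg adjustment over all 470 and sex and batch as covariates. CAG length was a number (7 for WT). Batch is the L code in library names at 2m and 10m and the block of library numbers at 6m, where Q92 F2 carries another L code and was kept in block B. The contrasts between ages had sex alone as a covariate. Standard errors are the size of the log2 change divided by the square root of F. Levels are CPM with their lowest, median and highest value or mean ± SD. The fits were tested on simulated data. Alternatives were RLE factors, no low-count filter, DESeq2 1.42.0 with and without replacement of outlying counts, limma 3.58.1 on log2(RPKM + 1), no batch term, a replicate block, single control genotypes, subsets for the slope, and libraries left out in turn. Labels do not give separate cultures or litters, but the study describes 1 mouse per library. The 588 pairs of libraries within groups differed by more than counting noise (smallest chi-square per degree of freedom 12.2).

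Genes named are Mir184, the tested members of the activity-regulated list, the 5 highest and 3 lowest in correlation with Mir184 within groups, the 3 highest over group means, and its neighbours. Mir184 and all lists were chosen with earlier results of these data known.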

Additional observations from a re-analysis of the deposited data

Results flagged for a closer look

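In 1 of the 21 groups of 8 libraries the most extreme library stood far from the rest relative to the range of its group. Q175 F3 at 2m held Mir184 at 24.7 CPM (72 counts), and the next library of the group stood at 18.5. This check marks about 1 in 20 groups by chance, and 21 groups were examined. Without this library the log2 difference between Q175 and the controls at 2m was -0.02, against 0.03 with it, and neither was called.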

How the results depend on the processing

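Over 26 tested comparisons of Mir184, 255 alternative fits gave 0 calls (smallest adjusted p = 0.187). The Q175 value at 10m kept its sign under all alternatives run, from 0.39 with WT alone to 0.71 with Q20 alone as the control. It lay at 1.11, 0.07 and 0.13 within L6, L7 and L8 and at 0.12 without the 3 L6 libraries, the last chosen after seeing the data. This value selected Mir184 and most alternatives used the same libraries, so the kept sign is a description and no further support. Leaving out 1 library moved it between 0.43 (Q175 F4) and 0.60 (Q175 M3). The 10m slope of 0.18 turned to -0.17 without Q175, -0.032 in males alone and -0.064 without the L6 libraries of Q175. The other changes of sign were in values near 0, except that of Q80 at 6m, which stood at 0.12 in the main fit. Leaving out single libraries gave Q175 values of -0.024 to 0.063 at 2m and -0.051 to 0.041 at 6m. The 2m slope became -0.033 without WT and -0.010 in females, and the 6m slope -0.059 in males. Q20 alone as the control gave -0.040 for Q140 and -0.038 for Q175 at 2m and 0.011 for Q111 at 10m, and WT alone gave -0.012 for Q175 at 6m. RPKM gave -0.015 for Q140 at 2m, 0.030 for Q20 against WT at 10m and 0.026 in the permutation test at 6m. Without the batch term Q80 stood at -0.023 at 6m and 0.065 at 10m, and the Q175 difference between 6m and 2m at 0.075. Q92 at 6m went from 0.17 to 0.045 without that term, so the 6m allele values depend on it. Q175 at 6m was -0.026 with no low-count filter. The cause of these shifts was not tested.

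The replicate block gave -0.005 for Q140 at 2m, -0.013 for Q175 at 6m and 0.53 (SE 0.17) for Q175 at 10m, and changed no call. Libraries of the same sex and number did not deviate together (mean correlation 0.00, as for other numbers, and 14.6% were closest to their own number), so the numbers were taken as names. The sex contrasts had no such fit, since numbers lie within sex, and the age contrasts were not run on RPKM or without batch. Depth limits Mir184 through its 13 to 135 counts, which give a library's value an error near 12.8%.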
